A study of Homo sapiens with 16 samples.

Results

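The p53-Y220C and p53-null forms of a lung cancer cell line were compared after both had received the same compound. The comparison took 8 of the 16 RNA-seq libraries of the study, namely 4 libraries of p53-Y220C cells and 4 of p53-null cells, all treated with 10 µM MS78 for 24 h, and these are called Y220C MS78 and Null MS78. The libraries were chosen by their labelled genotype and treatment, and no measured value was used. NCI-H1299 comes from a human lung carcinoma of the non-small cell type and does not make p53, and the p53-Y220C cells are the same line made to express the mutant protein stably. The remaining 8 libraries, 4 of each line given the vehicle DMSO (Null DMSO and Y220C DMSO), served as the baseline. For each gene it was asked whether its level differed between the lines under MS78, and whether that difference was the same as under DMSO.

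The p53 protein is a transcription factor that stops the cell cycle or triggers cell death when DNA is damaged, through target genes such as CDKN1A. Y220C replaces a tyrosine on the surface of its DNA-binding domain, which leaves a crevice and makes the fold unstable at body temperature. Unstable p53 is a client of heat shock chaperones, and small molecules have been made that sit in the crevice. MS78 was made to join such a ligand to one that binds p300 and CBP, acetyltransferases that open chromatin and acetylate p53.

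Some features of the design limit what a difference between the lines can be assigned to. The p53-Y220C cells were grown with the selection drug G418 and the p53-null cells without it, so that line, selection drug and transgene cannot be told apart. The labels do not say what promoter drives the transgene, whether the stable line is 1 clone, or whether replicates are separate cultures, and p-values therefore measure the spread between these libraries, which may be technical. In bulk RNA, fewer cells of a kind and less RNA per cell cannot be told apart either.

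Estimated reads per library were 20.7 M to 27.7 M in Null MS78 and 20.3 M to 21.8 M in Y220C MS78. Leukocyte transcripts were found in replicates 2, 3 and 4 of both MS78 groups, where PTPRC, the gene of the leukocyte surface protein CD45, had 74 to 99 reads in the null line and 60 to 93 in the Y220C line. Replicate 1 had 1 and 0 reads. Under DMSO it was replicate 1 of each line that held them, so the reads were spread alike over the 2 lines within a treatment. Of 22 leukocyte markers tested, 21 did not pass the test between the lines under MS78. The exception was CORO1A, a leukocyte actin regulator, at 11.7 ± 3.52 CPM (reads per 1e6 reads of the scaled library) in Null MS78 and 5.99 ± 2.85 in Y220C MS78 (SD, n = 4, adjusted p = 0.0134), with groups that overlapped and a similar difference under DMSO. Mitochondrially encoded genes took 2.90% to 3.28% of reads in Null MS78 and 3.42% to 3.78% in Y220C MS78. Of 13 such genes, 10 were called higher and 0 lower in the Y220C line under MS78, against 4 and 2 under DMSO. Over all genes tested, 30.7% were higher and 31.2% lower under MS78, and 24.7% and 25.5% under DMSO. As for the labelled lung carcinoma, 7 of 16 lung epithelial markers had at most 10 reads in each MS78 library, among them the airway gene SCGB1A1 and the alveolar gene SFTPD at 0. The alveolar surfactant gene SFTPA1 had 0 to 9 reads in Null MS78 and 25 to 50 in Y220C MS78 (0 to 15 and 1 to 90 under DMSO). The epithelial keratins KRT8 and KRT18 were present at 173 ± 6.54 and 288 ± 2.13 CPM in Null MS78 and at 243 ± 14.3 and 377 ± 15.7 in Y220C MS78 (SD, n = 4).

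Under MS78 the lines differed in most of the expressed transcriptome. The line difference below is always the log2 ratio of Y220C over null cells within a treatment, from 1 edgeR fit over all 16 libraries, and a gene is called at a Benjamini-Hochberg adjusted p under 0.05. Of 15687 genes tested, 9699 were called (61.8%), 4812 higher in the Y220C line (30.7%) and 4887 lower (31.2%). In 1614 genes (10.3%) the difference was called and at least 2-fold, with 615 higher (3.92%) and 999 lower (6.37%). For 8851 genes (56.4%) the 4 libraries of one line did not overlap the 4 of the other. Under DMSO, in libraries that the MS78 comparison does not share, 7875 genes were called (50.2%), 3882 higher in the Y220C line (24.7%) and 3993 lower (25.5%), and 1050 were at least 2-fold apart (6.69%). The median size of the line difference was 0.23 under DMSO and 0.31 under MS78 on the log2 scale. The lines thus stood further apart after the compound, and the change of the difference was tested gene by gene: it was called for 4197 genes (26.8%), 2256 towards the Y220C line (14.4%) and 1941 towards the null line (12.4%). With a term added for the libraries that held PTPRC reads, 9781 genes were called under MS78 and 4225 for the change. The shares over all genes in this paragraph are the background for the counts of list members given below.

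Most baseline differences were still there under MS78. Of the 7875 genes called under DMSO, 5947 (75.5%) were called under MS78 with the same sign, which is 61.3% of those called under MS78, and 763 genes were at least 2-fold apart in the same direction in both. Across the 15687 genes the 2 line differences had a Pearson correlation of 0.74 and a Spearman correlation of 0.69, given as a description, since genes are not independent replicates. The tests were then combined into classes. A difference persisted where it was called in both treatments with one sign and its change was not called (4325 genes, 27.6% of those tested), and it widened where the change was called and the size grew (1428 genes, 9.1%). It narrowed in 194 genes (1.24%), closed in 604 that were called under DMSO only (3.85%), opened in 1624 that were called under MS78 only (10.4%), and reversed sign in 296 (1.89%). These classes leave 2860 genes called in 1 treatment without a called change, 51 with a called change alone, and 4305 called in neither. Large differences under DMSO mostly stayed large, since 763 of the 1050 at least 2-fold apart were so under MS78 with the same sign (72.7%). The change was called for 174 of these 1050 (16.6%) and for 534 of the 1614 at least 2-fold apart under MS78 (33.1%). An uncalled change does not show that a difference stayed the same. Widened genes went from a median size of 0.31 under DMSO to 0.71 under MS78, and narrowed genes from 0.56 to 0.27.

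**Figure D1:**
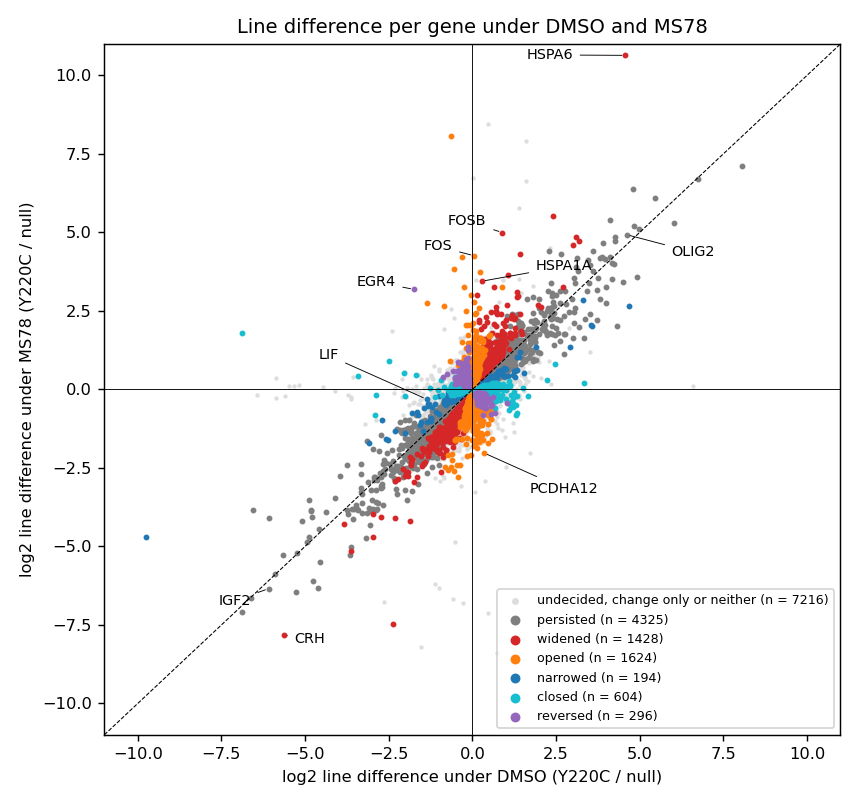
Line difference of each of 15687 genes (log2 of Y220C over null cells) under DMSO on the horizontal axis and under MS78 on the vertical axis, coloured by class; the dashed line marks equal differences. Persisted genes (grey) follow the dashed line, HSPA6 lies highest at 10.64 under MS78, and opened genes (orange) line up along the vertical axis.

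Heat shock chaperone genes held HSPA6, the gene with the highest line difference of all those tested under MS78. Chaperones of the HSP70 and HSP110 families bind unfolded stretches of client proteins, HSP40 proteins hand clients to them, and HSP90 and its co-chaperones complete the folding of clients that include mutant p53. Their genes are driven by heat shock factor, which binds inverted repeats of the unit GAA in promoters. A pair of units in a row was searched for (GAANNTTC or TTCNNGAA). The letters read the same on both strands, and matches may overlap. This looser search was chosen after a search for 3 units in a row had been seen. Promoters of 4 chaperone genes are shown, taken from those with a match. They cover 250 bases before and 50 after the RefSeq start on GRCh38.p14, plus strand, at chr1:161524290-161524589 (HSPA6), chr6:31815293-31815592 (HSPA1A), chr6:31827488-31827787 (HSPA1B) and chr12:119178681-119178980 (HSPB8), written 5′ to 3′ with the matches in capitals.
HSPA6: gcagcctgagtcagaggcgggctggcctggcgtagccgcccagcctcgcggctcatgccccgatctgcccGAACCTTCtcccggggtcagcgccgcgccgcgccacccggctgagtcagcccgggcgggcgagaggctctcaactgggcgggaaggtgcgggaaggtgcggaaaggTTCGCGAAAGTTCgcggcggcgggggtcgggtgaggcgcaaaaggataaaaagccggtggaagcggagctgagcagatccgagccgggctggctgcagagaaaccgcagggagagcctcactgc
HSPA1A: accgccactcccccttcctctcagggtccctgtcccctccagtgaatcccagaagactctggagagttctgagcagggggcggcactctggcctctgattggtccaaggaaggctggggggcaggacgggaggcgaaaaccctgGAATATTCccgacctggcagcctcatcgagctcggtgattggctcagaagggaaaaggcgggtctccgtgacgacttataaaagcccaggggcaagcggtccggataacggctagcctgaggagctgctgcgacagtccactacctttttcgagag
HSPA1B: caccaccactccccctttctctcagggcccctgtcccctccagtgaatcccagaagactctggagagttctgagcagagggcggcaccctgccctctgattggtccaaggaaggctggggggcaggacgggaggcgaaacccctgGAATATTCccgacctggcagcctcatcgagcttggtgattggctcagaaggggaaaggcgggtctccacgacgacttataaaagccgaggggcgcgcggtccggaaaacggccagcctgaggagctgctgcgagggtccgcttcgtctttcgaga
HSPB8: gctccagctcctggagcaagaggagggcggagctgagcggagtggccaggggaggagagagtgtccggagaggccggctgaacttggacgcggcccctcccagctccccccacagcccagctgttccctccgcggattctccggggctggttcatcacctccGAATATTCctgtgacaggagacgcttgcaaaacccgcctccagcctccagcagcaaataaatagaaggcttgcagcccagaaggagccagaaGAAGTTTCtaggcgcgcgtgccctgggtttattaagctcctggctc

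HSPA6 held 3 such matches, of which 2 overlap, HSPB8 held 2, and HSPA1A and HSPA1B held 1 each. Of 27305 RefSeq promoters, 3738 (13.7%) held at least 1 match. The HSP70 and HSP110 list had 6 of 13 promoters with a match (46.2%) and the list of HSP40, HSP90, small heat shock proteins and co-chaperones 7 of 22 (31.8%). Among those not shown, HSPA8 held 4 matches, and HSPB1, which was lower in the Y220C line under MS78, held at least 1. The stricter run of 3 units in a row, the first of the patterns above followed by NN and GAA, was in 133 of all promoters (0.487%), in 2 of 13 and in 4 of 22. DNAJB1, HSPH1 and BAG3, described below, had no match in this window, which says only that these letters are not in it.

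HSPA6 (ENSG00000173110, chromosome 1, 161524540 to 161526910, GENCODE 29 on GRCh38), a strictly heat-inducible HSP70, had 8, 9, 5 and 7 reads in the Null MS78 libraries, which is 0.311, 0.324, 0.207 and 0.339 CPM. In Y220C MS78 it stood at 475, 471, 466 and 504 CPM. The null libraries were thus near the limit of detection and the Y220C libraries far above it, a difference of 10.64 on the log2 scale (SE 0.10, adjusted p = 1.13e-24). Part of it was already present under DMSO, at 0.19 ± 0.0456 CPM in the null and 4.64 ± 0.895 in the Y220C line (SD, n = 4), and the change of 6.06 was called (SE 0.57, adjusted p = 1.51e-07). HSPA1A (ENSG00000204389, chromosome 6, 31815464 to 31817946), a stress-inducible HSP70, stood at 368, 398, 392 and 409 CPM in Null MS78. In Y220C MS78 its libraries were at 4252, 4295, 4148 and 4347 CPM. The 2 groups were 10.9-fold apart without overlap (log2 difference 3.44, SE 0.04, adjusted p = 2.25e-23), where the difference under DMSO was 0.28. Its neighbouring copy HSPA1B had a log2 difference of 3.00 under MS78 and 0.13 under DMSO. Reads of HSPA1A, HSPA1B and HSPA6 can be split between near-identical sequences by the quantifier, so the share of each is uncertain.

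Of 15 HSP70 and HSP110 genes tested, 11 were higher and 1 lower in the Y220C line under MS78, against 6 and 1 under DMSO, and the list's median line difference went from 0.00 to 0.77. The same medians over all genes tested were 0.00 and -0.01. The change was called upward for 11 of the 15 and downward for HSPA2 (-0.31), a testis-enriched HSP70 that was also the only member lower under MS78 (-0.81). HSPH1, the HSP110 that recharges HSP70 with nucleotide, went from 170 ± 3.78 CPM in Null MS78 to 748 ± 22 in Y220C MS78 (SD, n = 4; log2 difference 2.14 against 0.45 under DMSO).

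The partner proteins moved with them. All 25 tested members of the list of HSP40, HSP90, small heat shock proteins and co-chaperones were called under MS78, 23 higher and 2 lower, where under DMSO 10 were higher and 6 lower. The change was called upward for 23 and downward for 0, and the median line difference went from 0.01 to 0.64. HSPB8, a small heat shock protein that works with BAG3 in clearing misfolded proteins, stood at 0.389, 0.324, 0.249 and 0.436 CPM in Null MS78 and at 9.97, 8.18, 9.34 and 9.69 in Y220C MS78. The groups were far from overlapping (log2 difference 4.72, SE 0.20, adjusted p = 6.42e-14). DNAJB1, the inducible HSP40, differed by 2.22 (SE 0.03), BAG3, a nucleotide exchange factor of HSP70, by 2.15 (SE 0.03) and CHORDC1, an HSP90 co-chaperone, by 1.94 (SE 0.05) on the log2 scale. Their differences under DMSO were 0.20, 0.20 and 0.25. The 2 lower members were HSPB1 (-0.89), a small heat shock protein, and HSF1 (-0.17), heat shock factor itself, on the log2 scale. CRYAB, the small heat shock protein αB-crystallin, was singled out after its values were seen: it had 0 reads in each Null MS78 library and 33, 31, 24 and 30 reads in those of Y220C MS78, where each DMSO library of either line had 0 or 1.

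**Figure D2:**
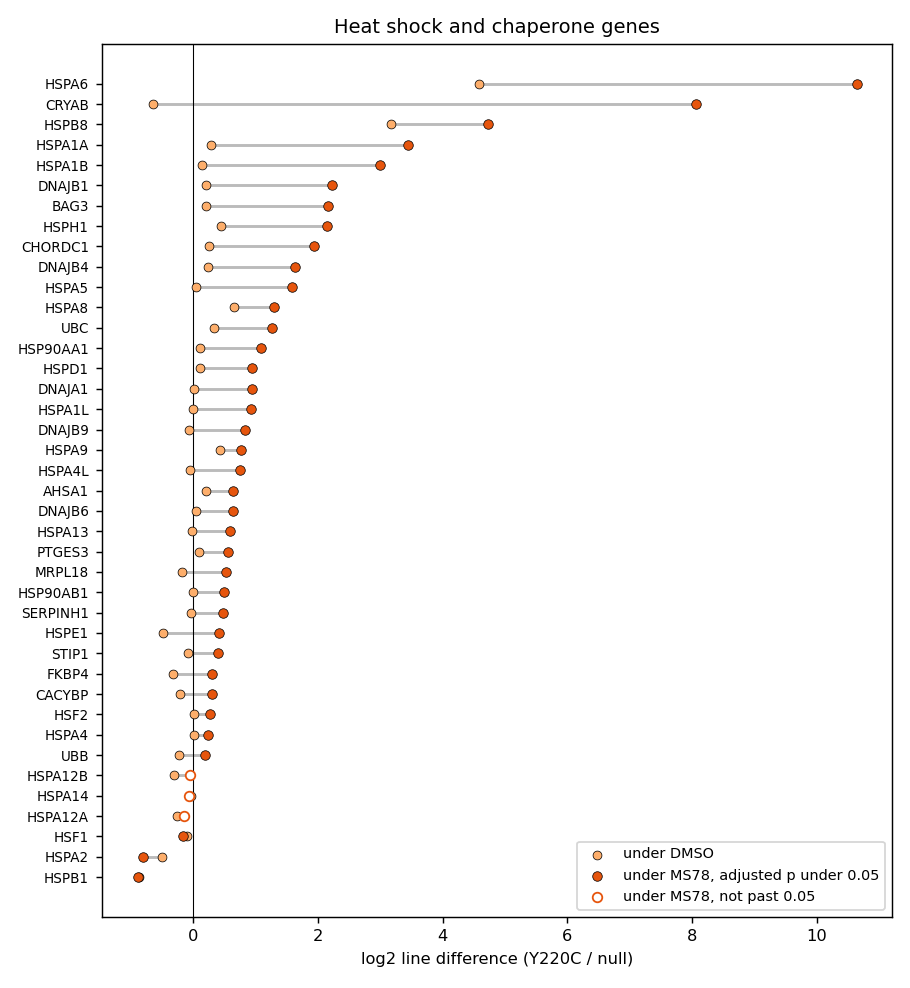
Line difference (log2 of Y220C over null cells) of the 40 tested members of both chaperone lists, under DMSO and under MS78. Most MS78 points lie to the right of the DMSO points, HSPA6 and CRYAB furthest, while HSPB1 and HSPA2 lie on the negative side.

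Genes of the p53 pathway were examined next, because the compound was built around p53. CDKN1A (ENSG00000124762, chromosome 6, 36676460 to 36687339), the gene of the CDK inhibitor p21, stood at 80.5, 84, 82.9 and 87 CPM in Null MS78. In Y220C MS78 it was at 129, 129, 115 and 127 CPM. Every Y220C library was above every null library, a 1.5-fold difference (log2 difference 0.58, SE 0.04, adjusted p = 5.57e-10). Under DMSO the order was the opposite, with 50.5 ± 2.68 CPM in the null and 37.4 ± 1.18 in the Y220C line (SD, n = 4; log2 difference -0.43, adjusted p = 3.53e-07), and the change between the treatments was 1.01 (SE 0.07, adjusted p = 7.07e-10). MDM2, the ubiquitin ligase that p53 induces against itself, was at 15.8, 15.1, 12.8 and 15.8 CPM in Null MS78 and 14.5, 12.2, 13.3 and 12.9 in Y220C MS78. The groups overlapped and the difference was not called (log2 difference -0.17, SE 0.09, adjusted p = 0.112), although it passed with library totals in place of TMM (adjusted p = 0.0252) and without replicate 3 of Null MS78 (adjusted p = 0.031).

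Among the receptors of the death ligand TRAIL, TNFRSF10B, which signals cell death, was at 63.8 ± 2.06 CPM in Null MS78 and 105 ± 1.2 in Y220C MS78 (SD, n = 4; log2 difference 0.72, SE 0.04, adjusted p = 6.96e-12), wider than under DMSO by 0.47 (adjusted p = 5.63e-06). TNFRSF10A, the other signalling receptor, differed by 0.42 (adjusted p = 2.17e-05) where the DMSO difference of 0.08 was not called. Its change passed the test over all libraries (adjusted p = 0.0162) and not over replicates 2 to 4 of every group (adjusted p = 0.151). TNFRSF10D, a decoy receptor with a truncated death domain, was at 27.2 ± 1.69 and 46.6 ± 0.604 CPM (log2 difference 0.78). Its change from DMSO was just under the threshold (adjusted p = 0.0465) and was lost when any of 12 single libraries was left out. The decoy TNFRSF10C had at most 1.51 CPM in any MS78 library and was not called in either treatment.

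Of 55 tested p53 targets, 29 were higher and 13 lower in the Y220C line under MS78, against 12 and 20 under DMSO. Over all genes tested, 30.7% were higher and 31.2% lower under MS78, and 24.7% and 25.5% under DMSO. The list's median line difference went from -0.05 to 0.21. The change was called upward for 22 members and downward for 4, TP53I3 (-0.56), NINJ1 (-0.38), TP53INP1 (-0.37) and RAP2B (-0.20). Over all genes it was called upward for 14.4% and downward for 12.4%. The stress regulators in the list led it: ATF3, a transcription factor induced by many stresses, stood at 5.95, 5.22, 6.3 and 5.09 CPM in Null MS78 and 46.9, 44.5, 46.6 and 41.5 in Y220C MS78. The groups were 7.94-fold apart (log2 difference 2.99, SE 0.09, adjusted p = 2.93e-16), with a DMSO difference of -0.05 that was not called. PGF, a placental growth factor related to VEGF, differed by 1.65 under MS78 and 0.04 under DMSO. PMAIP1, which encodes the death-promoting BCL2 relative NOXA, reversed from -0.40 to 0.58, and so did the growth arrest gene GADD45A, singled out after its values were seen, from -0.40 to 0.84. CYFIP2, an actin regulator, was lower in the Y220C line in both treatments (-1.31 and -1.43). Members of this list also respond to other stress pathways, and ATF3 and GADD45A are not p53 targets alone.

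**Figure D3:**
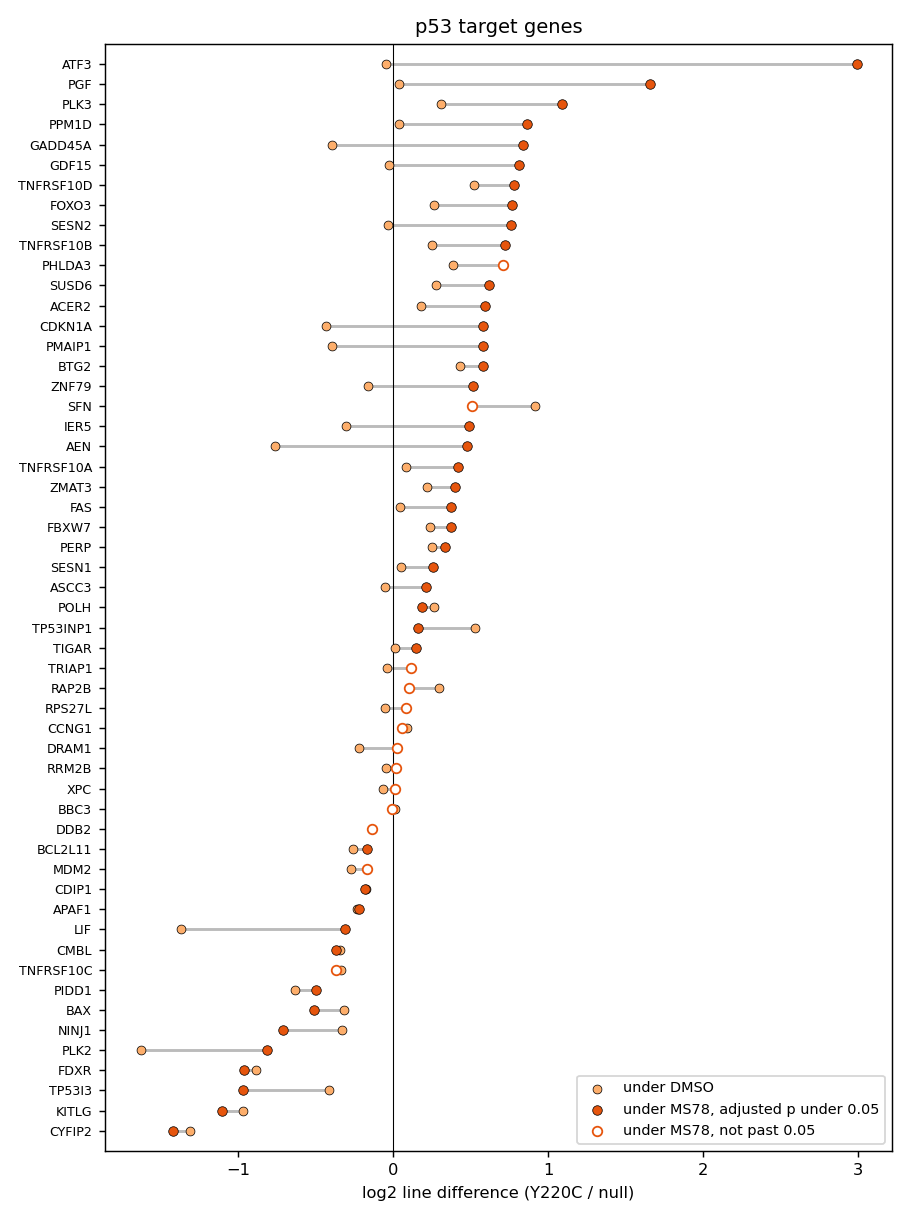
Line difference (log2 of Y220C over null cells) of 54 p53 targets under DMSO and under MS78. ATF3 is the highest under MS78 at 2.99, CDKN1A crosses from -0.43 to 0.58, and CYFIP2 is the lowest at -1.43.

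Immediate early genes, which growth factors and stress switch on without new protein synthesis, had the highest list median. Of 34 tested, 26 were higher and 4 lower in the Y220C line under MS78, against 11 and 7 under DMSO, and the median line difference went from 0.06 to 1.08. The change was called upward for 25 and downward for DUSP6 (-0.15), a MAP kinase phosphatase. FOS, a subunit of the transcription factor AP-1, stood at 9.41, 8.17, 6.92 and 9.79 CPM in Null MS78 and 168, 173, 156 and 156 in Y220C MS78. All Y220C libraries lay far above every null library (log2 difference 4.25, SE 0.07, adjusted p = 1.6e-20), and the DMSO groups overlapped at 5.08 ± 0.456 and 5.28 ± 0.346 CPM. FOSB, its relative, was 31.9-fold higher under MS78 (log2 difference 5.00, SE 0.10), and JUN, their partner, 6.94-fold (2.79, SE 0.05), with 0.89 and 0.04 under DMSO. EGR1, a zinc finger factor of the same response, was at 29, 27.4, 25.5 and 26.1 CPM in Null MS78 and 334, 348, 321 and 350 in Y220C MS78. The groups did not overlap (log2 difference 3.64, SE 0.06, adjusted p = 1.6e-20), and EGR1 also had a called baseline difference (1.07), as FOSB did, whose baseline call was lost on length-scaled TPM (adjusted p = 0.447). EGR2 had 1, 12, 17 and 5 reads in Null MS78 and 70, 67, 70 and 67 in Y220C MS78, and EGR4 20, 12, 8 and 11 and 113, 95, 89 and 83. For EGR4 the sign reversed, since under DMSO the null line had 4 to 7 reads and the Y220C line 0 to 3. The change of EGR2 was not called without replicate 1 or without replicate 3 of Null DMSO (adjusted p = 0.105 and 0.104). The lower members under MS78 were IER3 (-0.51), NR4A2 (-0.36), DUSP6 (-0.21) and SPRY2 (-0.15).

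**Figure D4:**
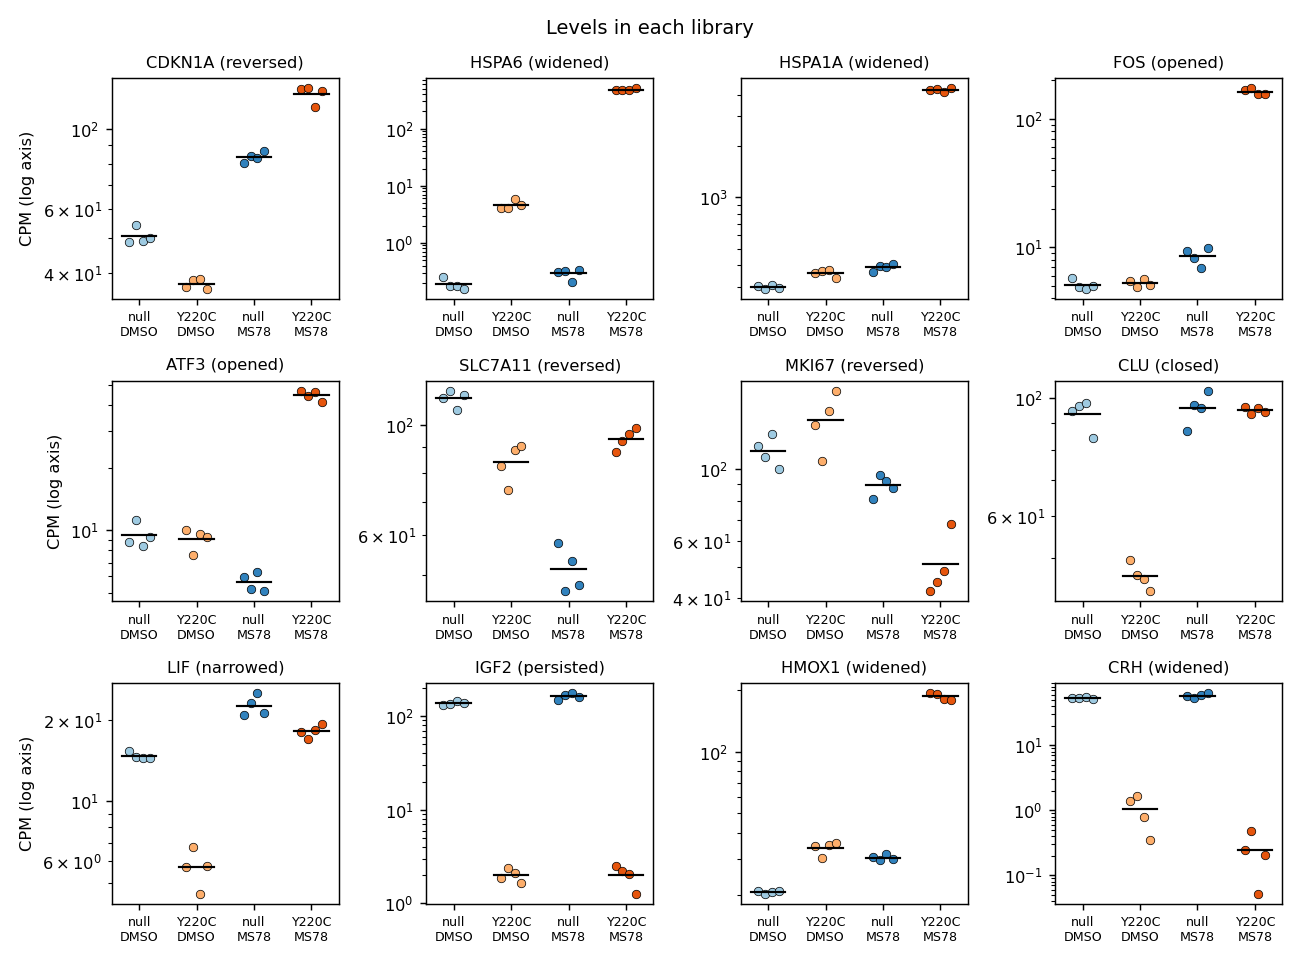
Level of 12 genes in each of the 16 libraries (CPM, log axis), by line and treatment, with a bar at each group's mean. HSPA6, HSPA1A, FOS and ATF3 are high in the 4 Y220C MS78 libraries alone, IGF2 is low in all 8 libraries of the Y220C line, and CLU is low in the 4 Y220C DMSO libraries alone.

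Stress programmes of translation and of the endoplasmic reticulum followed the same direction. ATF4 is the factor that raises amino acid and redox genes when translation is slowed, and of 30 genes of that response 25 were higher and 2 lower in the Y220C line under MS78 (15 and 9 under DMSO, median 0.11 to 0.67). The change was called upward for 24 and downward for ATF5 (-0.40) and DDIT4 (-0.39), and the 2 lower under MS78 were DDIT4 (-0.28) and SLC7A5 (-0.15). DDIT3, the gene of the death-linked factor CHOP, stood at 27.8, 27.2, 31.1 and 29.1 CPM in Null MS78 and 157, 153, 163 and 173 in Y220C MS78. They were 5.61-fold apart without overlap (log2 difference 2.49, SE 0.07, adjusted p = 9.05e-17) where the DMSO difference was 0.71. PPP1R15A, which restores translation, differed by 2.40 (SE 0.05), and NUPR1, a stress-induced chromatin protein, by 1.95 (SE 0.15). The change of NUPR1 was not called without the filter on low counts (adjusted p = 0.0831), on length-scaled TPM (0.179), over replicates 2 to 4 (0.106), or without replicate 3 or 4 of Null DMSO or replicate 2 of either MS78 group. SLC7A11, the cystine importer, reversed: it was lower in the Y220C line under DMSO, 113 ± 4.16 against 84 ± 7.67 CPM, and higher under MS78, 51.2 ± 5.3 against 93.8 ± 4.48 (SD, n = 4; log2 difference 0.87, SE 0.07, adjusted p = 6.53e-10). The null line's mean under MS78 was below its mean under DMSO.

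Among 23 genes of the endoplasmic reticulum and the unfolded protein response, 16 were higher and 4 lower under MS78, against 7 and 9 under DMSO, with medians of 0.54 and 0.02. The change was called upward for 17 and downward for 0. HSPA5, the HSP70 of that compartment, was at 929, 894, 941 and 954 CPM in Null MS78 and 2794, 2735, 2842 and 2743 in Y220C MS78. The groups were 2.99-fold apart (log2 difference 1.58, SE 0.03, adjusted p = 3.75e-20), while the DMSO groups did not differ by a called amount (0.04, adjusted p = 0.261). HERPUD1, of the degradation machinery there, reversed from -0.14 to 1.36, and HYOU1, a chaperone of the HSP110 family, widened from 0.40 to 1.08. HERPUD1's small baseline difference was not called without replicate 4 of Null DMSO, without replicate 1 of Y220C DMSO, or on length-scaled TPM. The 4 lower members were CRELD2 (-0.80), PDIA4 (-0.32), PDIA6 (-0.30) and CALR (-0.12), protein folding enzymes and calcium-binding chaperones for the most part.

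Proliferation genes were lower in the Y220C line, and more so under MS78. Of 40 genes of the E2F programme, the G1/S transition and replication, 34 were lower and 2 higher under MS78 (E2F7 (0.44) and CCNE1 (0.25)), against 37 and 1 under DMSO, so that this difference was largely a baseline one. It widened: the median went from -0.44 to -0.78, and the change was called downward for 22 and upward for 3, CDC6 (0.41), E2F7 (0.35) and SLBP (0.16). RRM2, the ribonucleotide reductase subunit that supplies DNA precursors, stood at 230, 229, 232 and 242 CPM in Null MS78 and 83.7, 83.1, 77.3 and 74.7 in Y220C MS78. The null libraries lay 2.92-fold higher (log2 difference -1.55, SE 0.04, adjusted p = 5.48e-17), against -0.91 under DMSO. E2F2 and E2F1, transcription factors of the programme, differed by -1.58 and -1.38 under MS78 and by -0.74 and -0.87 under DMSO.

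Of 40 genes of G2/M and mitosis, 26 were lower and 3 higher under MS78 (BUB1 (0.23), HMMR (0.23) and BUB3 (0.21)), against 14 and 9 under DMSO, and the change was called downward for 19 and upward for 0 (median -0.06 to -0.25). AURKB, a mitotic kinase, was at 56.5 ± 3.43 CPM in Null MS78 and 25.4 ± 1.86 in Y220C MS78 (SD, n = 4; log2 difference -1.15, SE 0.08, adjusted p = 6.16e-11), and CDC25B, the phosphatase that activates CDK1, differed by -0.72. MKI67, the proliferation marker Ki-67, stood at 81.3, 95.9, 92.2 and 87.9 CPM in Null MS78 and 42, 45, 48.5 and 68 in Y220C MS78. It was lower in every Y220C library (log2 difference -0.81, SE 0.14, adjusted p = 3.1e-05), where under DMSO it had been higher in the Y220C line by 0.32 in groups that overlapped. That baseline difference was just past the threshold (adjusted p = 0.0397) and was lost under DESeq2, with library totals, on length-scaled TPM, in replicates 2 to 4 and without any of 6 single DMSO libraries.

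Lipid synthesis genes were higher in the Y220C line. Sterol shortage activates SREBP2, which raises the enzymes of cholesterol synthesis, and of 26 such genes tested 18 were higher and 5 lower under MS78, against 16 and 4 under DMSO, with medians of 0.41 and 0.18. The change was called upward for 14 and downward for 3, TM7SF2 (-0.37), FDFT1 (-0.26) and LSS (-0.17). NPC1, which exports cholesterol from lysosomes, differed by 1.29, MSMO1, a sterol oxidase, by 0.90 and HMGCS1, the HMG-CoA synthase, by 0.83 under MS78, each wider than under DMSO (0.72, 0.48 and 0.57). The 5 lower genes were FDPS (-0.52), TM7SF2 (-0.46), PMVK (-0.43), ACAT2 (-0.24) and LSS (-0.10), so the pathway's enzymes did not all go one way. Of 16 genes of fatty acid synthesis and LXR, the oxysterol receptor, 9 were higher and 5 lower (5 and 7 under DMSO), and the change was called upward for 8 and downward for 0. FASN, the fatty acid synthase, was at 4008 ± 110 CPM in Null MS78 and 7284 ± 341 in Y220C MS78 (SD, n = 4; log2 difference 0.86, SE 0.04, adjusted p = 5.83e-14), against 0.15 under DMSO. SCD, the desaturase, kept its baseline difference, 0.55 under DMSO and 0.60 under MS78. The lower ones were LPCAT3 (-0.25), FADS2 (-0.24), NR1H2 (-0.22), SREBF1 (-0.22) and ABCA1 (-0.21).

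Inflammatory genes were mostly low in these cells, and 12 of 27 did not pass the filter on low counts. Of the 15 tested, 10 were higher and 4 lower in the Y220C line under MS78, against 5 and 5 under DMSO, and the change was called upward for 11 and downward for TNFAIP2 (-1.01) and CXCL2 (-0.29). PTGS2, the inducible cyclooxygenase, stood at 0.622, 0.936, 0.539 and 0.873 CPM in Null MS78 and 4.66, 6.08, 6 and 6.34 in Y220C MS78. Levels in both lines were low but apart in every library (log2 difference 2.95, SE 0.24, adjusted p = 1.32e-09). IL11, a cytokine, was at 0.62 ± 0.0926 and 3.32 ± 0.255 CPM, CCL2, a monocyte chemokine, at 0.433 ± 0.0725 and 1.81 ± 0.469, and RELB, an NF-kB subunit, at 39 ± 1.42 and 109 ± 7.47 (SD, n = 4). All 3 were called under MS78, with log2 differences of 2.41, 2.04 and 1.48, while the change of CCL2 was not (adjusted p = 0.0654) and that of IL11 was lost on length-scaled TPM (adjusted p = 0.0794). The lower ones were TNFAIP2 (-1.19), LIF (-0.31), ICAM1 (-0.21) and SOD2 (-0.10).

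Interferon-stimulated genes were split, and of 30 tested 13 were higher and 12 lower under MS78, against 7 and 9 under DMSO. IFIT2 and IFIT3, RNA-binding antiviral proteins, widened from 0.69 to 2.45 and from 0.99 to 2.22. BST2, the virus tether tetherin, was nearly off in the Y220C line, at 15.9, 17, 16.8 and 18 CPM in Null MS78 and 0.589, 1.75, 1.72 and 2.08 in Y220C MS78. That difference was -3.46 (SE 0.22) against -4.09 under DMSO, and the change was not called over all libraries. It was called over replicates 2 to 4 of every group (1.41, adjusted p = 0.000394), without replicate 1 of Y220C DMSO (adjusted p = 0.0155) and without replicate 1 of Y220C MS78 (adjusted p = 0.0335). In the Y220C line BST2 had more reads in the libraries with PTPRC reads. The numbers were 36 against 8, 15 and 12 under DMSO and 36, 33 and 41 against 12 under MS78. With a term added for the libraries that held PTPRC reads, the change of BST2 was still not called. That does not show that those libraries had no part in the result. OASL, an oligoadenylate synthetase relative, persisted, higher in the Y220C line by 2.20 and 1.82. Of 15 genes of HLA class I presentation, 9 were lower and 1 higher under MS78 (B2M (0.24)), close to the 10 and 0 under DMSO. PSMB9, an immunoproteasome subunit, was at 18.8 ± 2.64 CPM in Null MS78 and 6.14 ± 0.844 in Y220C MS78 (SD, n = 4; log2 difference -1.61), and HLA-F narrowed from -2.31 to -1.33, a change lost on length-scaled TPM (adjusted p = 0.468).

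**Figure D5:**
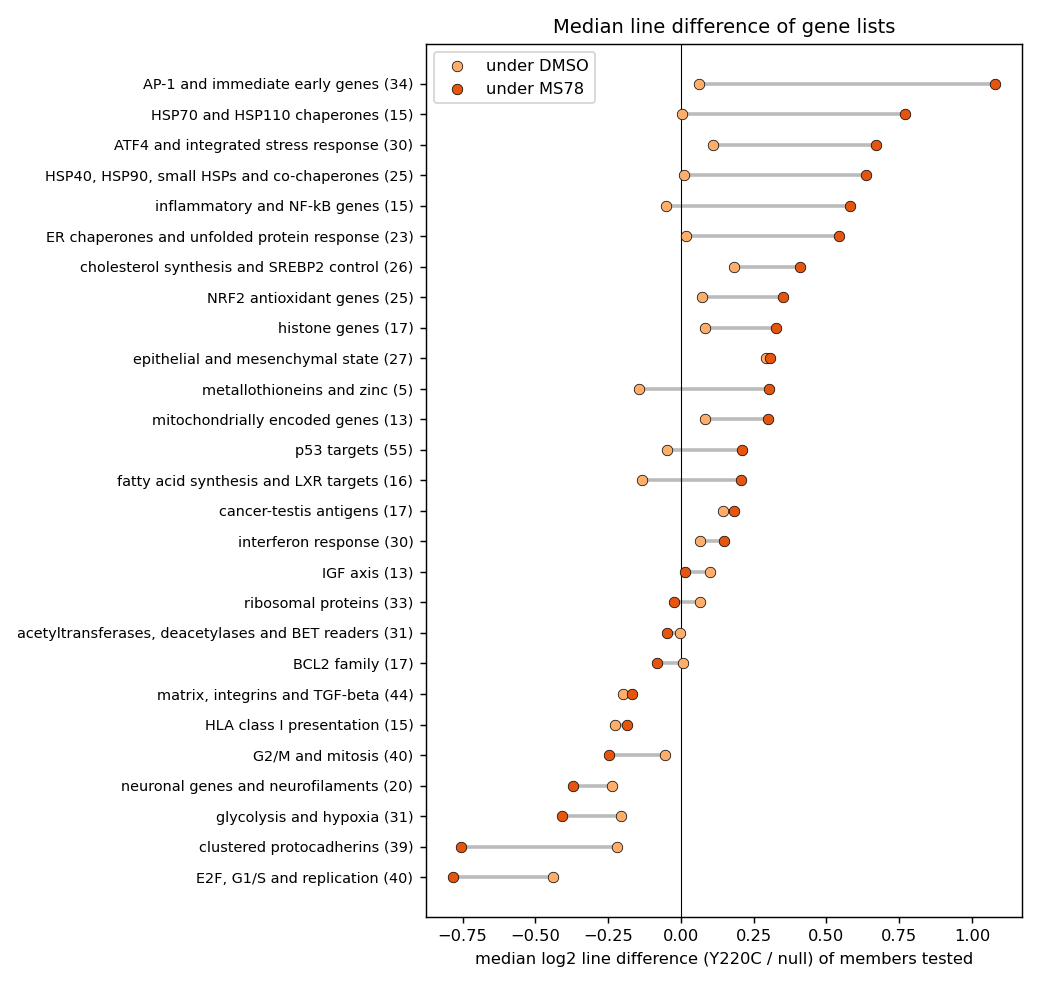
Median line difference (log2 of Y220C over null cells) of each of 27 gene lists under DMSO and under MS78, joined by a line. The median of AP-1 and immediate early genes moves furthest, from 0.06 to 1.08, the chaperone, ATF4 and endoplasmic reticulum lists move to the right, and the replication and protocadherin lists to the left.

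Several large differences persisted: their change was not called, which does not show that they were equal in both treatments. IGF2 (ENSG00000167244, chromosome 11, 2129112 to 2149603), the fetal growth factor, stood at 150, 169, 175 and 159 CPM in Null MS78 and 2.5, 2.19, 2.03 and 1.27 in Y220C MS78. The Y220C line lay 81.2-fold lower (log2 difference -6.34, SE 0.10, adjusted p = 2.7e-21), almost as under DMSO (-6.09), and the change was not called (adjusted p = 0.359). Of 13 tested genes of the IGF axis 6 were higher and 6 lower, and the change was called for IGF2BP1 (0.20) and IGF2BP3 (-0.29), which bind IGF2 messenger RNA. IRS2, an insulin receptor adaptor, persisted at 4.16 and 4.04, and the binding proteins IGFBP2 and IGFBP3 were higher in the Y220C line by 1.93 and 2.96 under MS78. RARB, a retinoic acid receptor, PLD5, a phospholipase D relative, and FLRT2, an adhesion protein, were the next persisted genes lower in the Y220C line. They stood at 4.77 ± 0.696, 5.96 ± 0.59 and 3.85 ± 0.411 CPM in Null MS78 and had at most 2 reads in any Y220C MS78 library. Their line differences were -5.91, -5.29 and -4.78 under DMSO and -5.89, -6.45 and -6.11 under MS78. The changes had SEs of 0.87, 0.54 and 0.57. SOX17, an endoderm transcription factor, had 1 read in each Y220C MS78 library against 2.54 ± 0.673 CPM in Null MS78. PRSS21, a testis serine protease, had 0 to 3 reads against 2.6 ± 0.705 CPM. The line differences of SOX17 and PRSS21 were -4.56 and -3.62 under DMSO and -5.51 and -5.01 under MS78, without a called change. HIVEP3, a zinc finger factor, was at -4.93 under DMSO and -4.86 under MS78.

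CRH (ENSG00000147571, chromosome 8, 66176382 to 66178725), corticotropin-releasing hormone, had the largest difference among the genes lower in the Y220C line with a mean of at least 1 CPM over the MS78 libraries. Its libraries stood at 56.8, 53.8, 59.9 and 63.2 CPM in Null MS78 and had 5, 10, 1 and 4 reads in Y220C MS78. The difference of -7.83 (SE 0.20, adjusted p = 1.73e-17) was wider than the -5.64 under DMSO by a called amount (adjusted p = 0.00152). C1QTNF12, an adipokine, and EPHA3, an ephrin receptor, were likewise wider, at -5.13 and -4.71 under MS78, with changes (adjusted p = 0.0241 and 0.0265) that were lost without replicate 1 of Y220C MS78, which held no read of either gene. The change of C1QTNF12 was also lost without replicate 3 of Y220C DMSO, and that of EPHA3 without replicate 4 of Y220C DMSO or of Y220C MS78.

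Persisted genes higher in the Y220C line included transcription factors that the null line hardly made. OLIG2, a glial factor, had 2, 4, 1 and 3 reads in Null MS78 and 2.8, 2.97, 2.61 and 4.67 CPM in Y220C MS78. EBF3, a neural and B lineage factor, had 1, 2, 1 and 2 reads in Null MS78 and stood at 2.31 ± 0.52 CPM in Y220C MS78 (SD, n = 4). Their line differences were 4.93 and 5.12 under MS78 and 4.61 and 4.98 under DMSO. RFPL4A and RFPL4AL1, near-identical genes whose reads may be exchanged, had 1 to 3 and 0 to 1 reads per library in Null MS78 against 7.23 ± 0.827 and 2.17 ± 0.273 CPM in Y220C MS78. CSF2RA, a cytokine receptor subunit, CA8, a carbonic anhydrase relative, and ROR2, a WNT receptor, persisted at 5.39, 4.84 and 4.73. DHRS2, a short-chain dehydrogenase, was 45.9-fold higher and widened from 2.40 to 5.52.

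Matrix and integrin genes were mixed. Of all genes tested, 30.7% were higher and 31.2% lower under MS78. Of 44 genes tested in this list, 13 were higher and 21 lower under MS78, against 14 and 22 under DMSO. Called changes went upward for 7 and downward for 11, against 14.4% and 12.4% of all genes, while 16 genes persisted and 11 widened. CCN2, a matricellular growth factor, stood at 30.2, 25.7, 30.2 and 26.9 CPM in Null MS78 and 154, 152, 145 and 147 in Y220C MS78. It was 5.3-fold higher and widened from 1.43 to 2.41. MMP1, interstitial collagenase, went the other way, at 24.3 ± 1.73 and 3.89 ± 0.359 CPM (SD, n = 4; log2 difference -2.64 against -1.93), and ITGA2, a collagen-binding integrin, persisted lower at -1.76. Of 27 epithelial and mesenchymal genes 12 were higher and 5 lower. DSP, the desmosome protein desmoplakin, persisted higher at 2.31 and 2.30, the keratins KRT8 and KRT18 narrowed from 0.88 to 0.49 and from 0.69 to 0.38, and TGM2, a protein-crosslinking enzyme, widened downward to -1.41. The 5 lower genes were TGM2 (-1.41), TWIST2 (-1.24), S100A4 (-0.86), TWIST1 (-0.64) and VIM (-0.45).

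Neuronal genes and clustered protocadherins, adhesion proteins that give neurons their identity, were lower in the Y220C line. Of 20 neuronal genes tested 11 were lower and 1 higher under MS78 (UCHL1 (0.29)), against 9 and 3 under DMSO. SNAP25, of synaptic vesicle fusion, was at 27.3 ± 3.2 CPM in Null MS78 and 7.25 ± 0.967 in Y220C MS78, NEFH, the heavy neurofilament, at 52.4 ± 2.03 and 14.1 ± 1.2, and the RNA-binding protein ELAVL3 at 9.86 ± 1.18 and 1.75 ± 0.364 (SD, n = 4). SNAP25 and NEFH widened, to -1.91 and -1.89, and ELAVL3 persisted at -2.49. Of 39 protocadherins tested, 26 were lower and PCDHB6 (0.40) higher under MS78, against 14 and 1 under DMSO, and the median went from -0.22 to -0.76. PCDHB8 persisted, with 5, 6, 5 and 6 reads in Y220C MS78 against 4.73 ± 0.306 CPM in Null MS78. PCDHA12 opened, at 2.91 ± 0.486 CPM in Null MS78 and 0.711 ± 0.25 in Y220C MS78 (log2 difference -2.02), and its reads may be split with other members of the cluster, which share exons.

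Metabolic and redox genes divided. Of 31 genes of glycolysis and hypoxia, 20 were lower and 5 higher in the Y220C line under MS78, against 19 and 5 under DMSO, with medians of -0.41 and -0.21. LDHA, lactate dehydrogenase A, stood at 883, 905, 888 and 899 CPM in Null MS78 and 474, 467, 492 and 447 in Y220C MS78. The lines were 1.9-fold apart and wider than under DMSO (-0.93 against -0.40). ALDOC, an aldolase, differed by -2.46. The 5 higher genes were ADM (1.43), P4HA2 (0.98), VEGFA (0.54), P4HA1 (0.50) and SLC2A3 (0.40), a glucose transporter, secreted vascular peptides and collagen prolyl hydroxylases. Of 25 antioxidant genes of the oxidative stress factor NRF2, 19 were higher and 3 lower (ABCC3 (-0.98), TALDO1 (-0.21) and TKT (-0.18)) under MS78, against 11 and 6 under DMSO. HMOX1, heme oxygenase, stood at 30.4, 29.6, 31.5 and 30 CPM in Null MS78 and 192, 191, 181 and 178 in Y220C MS78. It was 6.11-fold higher (log2 difference 2.61, SE 0.05, adjusted p = 3.75e-20), against 0.71 under DMSO. SQSTM1, the autophagy adaptor p62, widened from 1.28 to 1.79, and ABCC2, a drug efflux pump, persisted at 1.90. Of 5 tested metallothionein and zinc genes 4 were higher, MT1X (1.61), SLC30A1 (1.24), MT2A (0.30) and MTF1 (0.27), and SLC39A10 (-0.36) lower. MT1X, a metal-binding metallothionein with close copies, and SLC30A1, the zinc exporter, were at 118 ± 19.6 and 82.4 ± 2.01 CPM in Y220C MS78 against 38.7 ± 4.32 and 34.9 ± 1.82 in Null MS78 (SD, n = 4).

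Acetyltransferases, among which the compound was made to engage p300 and CBP, were listed together with deacetylases and acetyl-lysine readers. This list was mixed at the RNA level. Of 31 tested, 9 were higher and 11 lower under MS78, near the 30.7% and 31.2% of all genes. Under DMSO 9 were higher and 8 lower, and the list's median under MS78 was -0.05. HDAC9, a class II deacetylase, was the largest of them, at 41.4, 37.2, 35.9 and 36.3 CPM in Null MS78 and 128, 129, 135 and 126 in Y220C MS78. It was 3.43-fold higher and widened from 0.96 to 1.78, while HDAC10 was lower (-0.99). In the BCL2 family, 6 of 17 genes were higher and 8 lower. The death-promoting HRK was higher by 1.78 and the death-promoting BMF and BOK lower (-0.92 and -0.69 on the log2 scale). Of 17 histone genes 8 were higher and 5 lower, led by H4C8, at 0.772 ± 0.235 and 4.17 ± 0.746 CPM, whose transcripts lack or vary in poly(A) tails and resemble those of other H4 genes. Cancer-testis antigens were more often higher than lower in both treatments: 8 of 17 were higher and 4 lower under MS78, 11 and 2 under DMSO, and 8 persisted.

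Other genes show how a baseline difference could narrow or close. CLU, the secreted chaperone clusterin, was lower in the Y220C line under DMSO, at 94.7, 96.9, 98 and 84.2 CPM in Null DMSO and 49.5, 46.3, 45.5 and 43.2 in Y220C DMSO. Under MS78 the groups overlapped, at 95.9 ± 6.78 and 94.9 ± 1.34 CPM (SD, n = 4; adjusted p = 0.844), and the change of 1.00 was called (adjusted p = 9.21e-09). Mean levels of the null line were 93.5 CPM under DMSO and 95.9 under MS78, so that the Y220C line reached the level of the null line. SOCS2, a cytokine signalling inhibitor, closed in the same way from -0.84 to 0.07, with groups that overlapped. OSBPL7, an oxysterol-binding protein relative, was higher in the Y220C line by 1.01 under DMSO and was not called under MS78 (-0.30, adjusted p = 0.14), where every Y220C library lay below every null library, at 3.17 to 3.34 CPM in Null MS78 and 2.11 to 3.13 in Y220C MS78. MFSD2A, a lysolipid transporter, closed from -0.95 to 0.30, but its change (adjusted p = 0.0352) was not called with the replicate number as a block (adjusted p = 0.0626) or without any of 8 single libraries.

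LIF, a cytokine of the interleukin 6 family, narrowed from -1.37 to -0.31, with 22.5 ± 1.94 CPM in Null MS78 and 18.2 ± 0.928 in Y220C MS78 (SD, n = 4). VGF, a secreted neuropeptide precursor, narrowed from 1.28 to 0.38. Its null mean was 450 CPM under DMSO and 770 under MS78, and its Y220C libraries were at 1068, 1080, 884 and 984 under MS78. SLFN11, a gene that sensitizes cells to replication stress, narrowed from -3.09 to -1.72, a change lost on length-scaled TPM (adjusted p = 0.45). TKTL1, a transketolase relative, had 0 reads in each Y220C DMSO library and 0, 6, 4 and 1 in Y220C MS78 against 3.68 ± 0.399 CPM in Null MS78, so its narrowing rests on a few reads. MCTP2, a calcium-binding membrane protein, narrowed from 3.57 to 2.03, but the change (adjusted p = 0.0453) was not called with the replicate block (adjusted p = 0.0725) or without any of 12 single libraries. SYT12, a synaptotagmin, opened downward (-1.40), as PCDHA12 did. The opened gene DUSP8, a JNK phosphatase, had 10, 8, 7 and 4 reads in Null MS78 and 124, 114, 93 and 109 in Y220C MS78, where under DMSO the lines had 9 to 14 and 7 to 10.

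Markers of other cell types beside leukocytes were uneven. At most 10 reads in every MS78 library were found for 5 of 11 fibroblast and 4 of 9 endothelial markers. The fibroblast marker FBLN1 had 1407 to 1913 reads in Null MS78 and 872 to 934 in Y220C MS78. The endothelial marker EGFL7 had 1536 to 1917 and 715 to 832. Of 5 tested fibroblast markers COL1A2 (2.25) and COL1A1 (1.19) were higher and FBLN1 (-0.57) lower under MS78, and LUM had 0 reads. Of 4 endothelial markers KDR (1.21) was higher and EGFL7 (-0.84) lower. Summed over the list, lung epithelial markers were at 460 to 473 CPM in Null MS78 and 611 to 648 in Y220C MS78, nearly all of it keratins. Of 33 ribosomal protein genes, 10 were higher and 9 lower, near the 30.7% and 31.2% of all genes. The part of these differences in the results above was not tested.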

How the data were processed

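Poly(A) RNA libraries of 16 NCI-H1299 samples were grouped by the labelled genotype and treatment, 4 per group. The deposited tables list transcripts in the columns that Salmon writes. Per the file headers, the authors gave estimated counts of reads for each transcript, often fractional and without normalization. They also gave TPM, scaled by effective length to a common sum, and other columns with both lengths, per the file headers. FastQC 0.11.8 and hg38 are named in the submitters' processing notes. Not given in the sources used here are the quantifier's version, annotation and options, and whether counting used strand.

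Estimated counts of the 193348 of 197653 transcripts (97.82%) that matched GENCODE 29 were added up for 56865 genes, and the sums were rounded. The transcripts without a match took 0.278% to 0.325% of reads. After filterByExpr with default settings, 15687 genes were tested by edgeR 4.0.16 (R 4.3.3) quasi-likelihood F-tests with TMM, in 1 fit of 16 libraries (12 residual degrees of freedom). Adjusted p-values are Benjamini-Hochberg over all genes tested within a comparison. SE is approximate, a log2 difference over the root of its F. CPM is per 1e6 reads of the TMM-scaled library. Total reads of 20.3 M to 27.7 M per library set the precision, and a count of 0 allows up to 3 reads, for counting error only. No library repeated another of its group (chi-square per gene between replicates 2.52 to 10.96).

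The fit was also run on simulated counts with known changes, drawn with the gene means and spread of these libraries. Of 50 genes changed 1.25-fold in the simulated Y220C MS78 libraries, 31 were called between the lines under MS78. For the change of the line difference 18 of the 50 were called. At 2-fold these numbers were 46 and 42. The simulation changed 50 of 15456 genes at each fold, whereas 9699 of 15687 genes were called under MS78 in the data. Its rates may therefore not hold for the data.

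Deviations from the group means were correlated between same-numbered libraries of the 2 lines. The correlations were 0.53, 0.15, 0.20 and 0.17 under MS78 and 0.45, 0.17, -0.06 and 0.15 under DMSO. Libraries of different numbers were not compared, so these values cannot show that the numbers mark pairs. The labels do not say what a number marks. In each treatment the highest value was that of replicate 1, which differed from the other replicates in PTPRC reads in both lines. The part of those reads was not tested.

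The comparison, the 31 gene lists and the rule for named genes were chosen with earlier results of these data known. The rule took CDKN1A, MDM2 and the 4 TRAIL receptors whatever their values, the 10 higher and 10 lower protein-coding genes of largest line difference under MS78 (called, at least 1 CPM, groups apart), up to 4 per class and sign, and up to 4 per list; fewer are named, in rank order. Genes that spell out a count of 5 or fewer were named after their values were seen. Some genes the rule took are not reported here, the level of the transgene among them. Of the list members, 1 had no gene in the annotation. Genes with close copies (HSPA1A, HSPA1B, HSPA6, RFPL4A, RFPL4AL1, PCDHA12, H4C8, MT1X) are uncertain, since the quantifier divides shared reads. Alternatives were other normalizations, filters, DESeq2 1.42.0, TPM summed per gene and scaled by length to counts, replicate blocks, a term for PTPRC reads, and leaving libraries out.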

Additional observations from a re-analysis of the deposited data

Results flagged for a closer look

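The line difference changed between DMSO and MS78 by a called amount for 4197 of 15687 genes, by edgeR's quasi-likelihood test of the difference itself. The genes named in the text that were among them are given with their change on the log2 scale (line difference under MS78 minus that under DMSO, n = 4 libraries per group). Among chaperone genes it was 8.71 for CRYAB, 6.06 for HSPA6, 3.17 for HSPA1A, 2.87 for HSPA1B, 2.02 for DNAJB1, 1.95 for BAG3, 1.69 for HSPH1, 1.68 for CHORDC1, 1.55 for HSPB8, 1.54 for HSPA5, 1.5 for HERPUD1 and 0.69 for HYOU1. Among immediate early genes it was 4.92 for EGR4, 4.53 for DUSP8, 4.20 for FOS, 4.10 for FOSB, 3.50 for EGR2, 3.04 for ATF3, 2.76 for JUN and 2.58 for EGR1. Among ATF4, NRF2 and metal response genes it was 1.90 for HMOX1, 1.78 for DDIT3, 1.55 for PPP1R15A, 1.39 for SLC30A1, 1.38 for MT1X, 1.30 for SLC7A11, 0.68 for NUPR1 and 0.51 for SQSTM1. Among p53-linked and death genes it was 1.62 for PGF, 1.23 for GADD45A, 1.01 for CDKN1A, 0.98 for PMAIP1, 0.85 for HRK, 0.47 for TNFRSF10B, 0.34 for TNFRSF10A, 0.26 for TNFRSF10D and -0.88 for BMF. Among proliferation genes it was -0.51 for E2F1, -0.52 for CDC25B, -0.62 for AURKB, -0.64 for RRM2, -0.83 for E2F2 and -1.14 for MKI67. Among lipid genes it was 1.24 for MFSD2A, 0.71 for FASN, 0.57 for NPC1, 0.42 for MSMO1, 0.25 for HMGCS1 and -1.31 for OSBPL7. Among inflammatory and antiviral genes it was 1.76 for IFIT2, 1.68 for IL11, 1.63 for PTGS2, 1.23 for IFIT3, 1.06 for LIF, 0.97 for HLA-F, 0.92 for SOCS2 and 0.49 for RELB. Of the other genes named, it was positive, at 5.07 for TKTL1, 3.12 for DHRS2, 2.32 for H4C8, 1.37 for SLFN11, 1.04 for P4HA2, 1.00 for CLU, 0.98 for CCN2, 0.82 for HDAC9 and 0.64 for ADM. It was negative, and largest, at -2.37 for PCDHA12, -2.19 for CRH, -1.83 for SYT12, -1.75 for EPHA3, -1.54 for MCTP2, -1.49 for C1QTNF12 and -0.89 for VGF. Smaller negative values were -0.72 for MMP1, -0.70 for HDAC10, -0.67 for TGM2, -0.64 for SNAP25, -0.52 for LDHA, -0.40 for NEFH, -0.38 for KRT8 and -0.30 for KRT18. The fitted values of CRYAB and TKTL1, which had 0 reads in every library of a group, depend on the prior count and are no bound.

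In 10 of at most 228 groups of 4 libraries, 1 library stood apart from the other 3 by a gap past Dixon's 95% critical value. Chance gives such a gap in about 1 in 20 groups. Not all of the 228 could be judged, since CRYAB, for instance, had 0 reads in each Null MS78 library. The exact number judged is not given, so 10 cannot be set against chance. In Y220C MS78 the library apart was the lowest for CDKN1A (115 CPM), SCD (14370 CPM) and IL11 (2.94 CPM), and the highest for HYOU1 (371.5 CPM) and HRK (12.1 CPM). In Null MS78 it was the lowest for RARB (3.73 CPM) and the highest for ITGA2 (58.4 CPM), ABCC2 (1.45 CPM), IGFBP3 (1.07 CPM) and MT1X (45.1 CPM). No call of these genes between the lines under MS78 was lost when any single library was left out.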

How the results depend on the processing

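No called line difference or change of a named gene changed sign under any alternative. The 9699 genes called under MS78 became 8277 to 9943 over the alternatives and 9238 to 9867 when single libraries were left out, and those for the change of the line difference became 3685 to 4250 when single libraries were left out. Genes called in the opposite direction numbered 2 with length-scaled TPM and 0 otherwise. With library totals in place of TMM, 40.36% of calls were higher in the Y220C line, against 49.61%. Length-scaled TPM gave 2748 genes for the change, 797 widened, 96 narrowed, 179 reversed and 384 closed, and replicates 2 to 4 of every group gave 117 narrowed; the cause was not tested. With the replicate number as a block, 9623 genes were called under MS78 and 4060 for the change, and with a block within each treatment, added after the data were seen, 9943 and 4607. Among named genes the blocks ended the calls of the change for MCTP2 and MFSD2A and, within treatment, the DMSO call of IL11 (adjusted p = 0.0571), and made a call of MT1X under DMSO (adjusted p = 0.0065). They altered no other named call.

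Of the 114 named genes, the line difference under MS78 lost its call under an alternative in CORO1A alone (length-scaled TPM, adjusted p = 0.368), against 13 genes for the DMSO difference and 12 for the change. Over replicates 2 to 4 the changes of ADM (adjusted p = 0.137) and EPHA3 (0.114) and the DMSO call of MFSD2A (0.166) were lost. Calls of the change appeared for CCL2 without replicate 2 of Null DMSO (0.0178), for RFPL4A without replicate 1 of Null DMSO (0.0353) and for ITGA2 with library totals (0.0222). List medians near 0 changed sign for cancer-testis antigens without the filter, the IGF axis with library totals, the BCL2 family with length-scaled TPM or without replicate 3 of Y220C MS78, ribosomal proteins without replicate 3 or 4 of Y220C MS78, and leukocyte and endothelial markers under several settings. Genes with a few reads per library carry the least precise values. Depth limits what can be said of genes at 0 to 3 reads in a group.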
